A study of Mus musculus with 2 samples.

Results

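The genes described here are p53 pathway target genes: Phlda3, Trp53, Mdm2, Cdkn1a, Ccng1, Pmaip1, Bbc3, Trp53inp1, Zmat3 and Sesn2. They were chosen as well-known targets and regulators of p53, and Phlda3 was also selected on its difference between these arrays, which is among the largest upward ones, so its value describes how it was picked. Of the 10 genes, 8 had a transcript cluster (the array's unit for 1 gene) with a single gene symbol, among 19938 such genes in all. Cdkn1a shares its cluster with another symbol and was given no value, and the level of Trp53 was not analysed here. The 8 measured genes each had 1 cluster, and all 8 passed the filter on low values, which asks for an average of the 2 arrays of at least 7.71 on the log2 scale, as did 10457 genes in all. Pmaip1 passed through the knockout array alone, since its heterozygous value of 7.69 was below the filter.

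RNA was measured in spleen CD4 T cells of 1 Taf7 -/- sample and 1 Taf7 +/- sample, with 1 array each, both of mixed C57/BL6 and 129 background. The knockout cells came from TAF7 f/- mice with the 8EIII-cre transgene and the heterozygous cells from TAF7 f/- mice without it, so both groups carry a floxed and a null allele and only the knockout carries Cre. The element that drives 8EIII-cre, the age of the mice and whether animals were pooled are not stated in the labels. Both samples were sorted on CD4 and T cell receptor beta and enriched for naive cells with little surface CD44, though Cd44 transcript was 2.55-fold lower in the knockout, at 9.56 in heterozygous and 8.21 in knockout cells. With 1 array per genotype no test between the genotypes was possible, no value below has a replicate check, and every difference is between these arrays.

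p53 is a transcription factor that is held low by the ubiquitin ligase Mdm2 and accumulates after DNA damage, ribosomal stress or other injury. It then activates genes that stop the cell cycle, such as Cdkn1a (p21), genes that trigger mitochondrial cell death, such as Bbc3 (Puma) and Pmaip1 (Noxa), and genes of metabolic and redox control, such as the sestrins. Mdm2 is itself a target, which closes a feedback loop. In lymphocytes p53 is known for the death of thymocytes after irradiation.

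Promoter sequences are given so that matches to the p53 element can be read beside the values. RefSeq entries (GRCm38.p6) were at hand for 7 of the 10 genes: Phlda3, Trp53, Mdm2, Cdkn1a, Ccng1, Bbc3 and Sesn2. The 250 bases before the start were searched for the p53 response element, a pair of decamers with a spacer of at most 13 bases and the central C and G of each decamer required. The element reads the same on both strands, so a single scan covers both. Shown are Phlda3, whose level differed most, and Ccng1 and Bbc3, which hold the closest matches among the measured genes, each written 5′ to 3′ with the matched decamers in capitals where the match had at most 3 mismatches. The windows are chr1:135765835-135766084 on the plus strand for Phlda3, chr11:40755287-40755536 on the minus strand for Ccng1 and chr7:16309333-16309582 on the plus strand for the first of 3 Bbc3 starts.
Phlda3: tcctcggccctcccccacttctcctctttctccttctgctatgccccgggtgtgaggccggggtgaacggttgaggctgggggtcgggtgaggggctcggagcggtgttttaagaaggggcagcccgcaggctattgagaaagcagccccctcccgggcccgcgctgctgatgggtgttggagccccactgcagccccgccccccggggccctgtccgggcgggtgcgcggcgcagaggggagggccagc
Ccng1: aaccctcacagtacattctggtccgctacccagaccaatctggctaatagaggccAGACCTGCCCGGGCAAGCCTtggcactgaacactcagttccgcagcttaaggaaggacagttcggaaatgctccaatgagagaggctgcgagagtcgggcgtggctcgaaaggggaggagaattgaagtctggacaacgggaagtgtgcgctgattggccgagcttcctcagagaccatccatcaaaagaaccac
Bbc3: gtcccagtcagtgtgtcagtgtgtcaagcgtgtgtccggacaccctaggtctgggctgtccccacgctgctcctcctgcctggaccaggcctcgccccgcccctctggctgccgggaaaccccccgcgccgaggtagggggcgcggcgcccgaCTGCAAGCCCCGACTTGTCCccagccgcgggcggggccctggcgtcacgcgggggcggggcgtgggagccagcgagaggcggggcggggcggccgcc
The Ccng1 match had 1 mismatch in 20 positions and no spacer, and began 195 bases before the start. A match with at most 1 mismatch was found in 0.505% of all 32851 promoter windows of this length. The Bbc3 match had 3 mismatches and began 97 bases before the start, and 13% of all windows held one as close or closer. The second Bbc3 window also had 3 mismatches and the third had 7. The nearest arrangement in the Phlda3 window had 5 mismatches, which 61.6% of windows reach, in Mdm2 it had 4, in Sesn2 it had 6 and in Trp53 it had 3. One Cdkn1a window held an exact match, as 0.0639% of windows did, and the other had 5 mismatches. The shares are per window, so a gene with several starts had more windows in which to match. These are letters in 250 bases only, and elements farther away or inside a gene were not searched.

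Phlda3 was the member that stood apart, and the other 7 measured genes lay within 1.31-fold between the genotypes. Phlda3 was 1.87-fold higher in the knockout array. In such bulk samples a different share of a cell type cannot be told apart from a different amount of RNA per cell. The cell death genes Pmaip1 and Bbc3 and the stress gene Sesn2 were higher by 0.25 to 0.39 on the log2 scale, while Mdm2, Ccng1, Trp53inp1 and Zmat3 were within 0.1 of 0. In all, 7 members were higher and 1 lower, where 40.9% of the 10457 genes were higher. Pmaip1 entered this count through the knockout array alone, so for it the filter itself favours a higher value. At 1.5-fold, 1 member of 8 was higher and none lower, where 0.449% of genes were higher and 3.17% lower. No member was 2-fold higher, as 0.0383% of genes were. Because the choice of members used this contrast, these counts describe the genes and support nothing further. The median difference was 0.13 over the 8 members and 0.02 over the 7 without Phlda3, beside -0.05 over all genes above the filter.

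**Figure D1:**
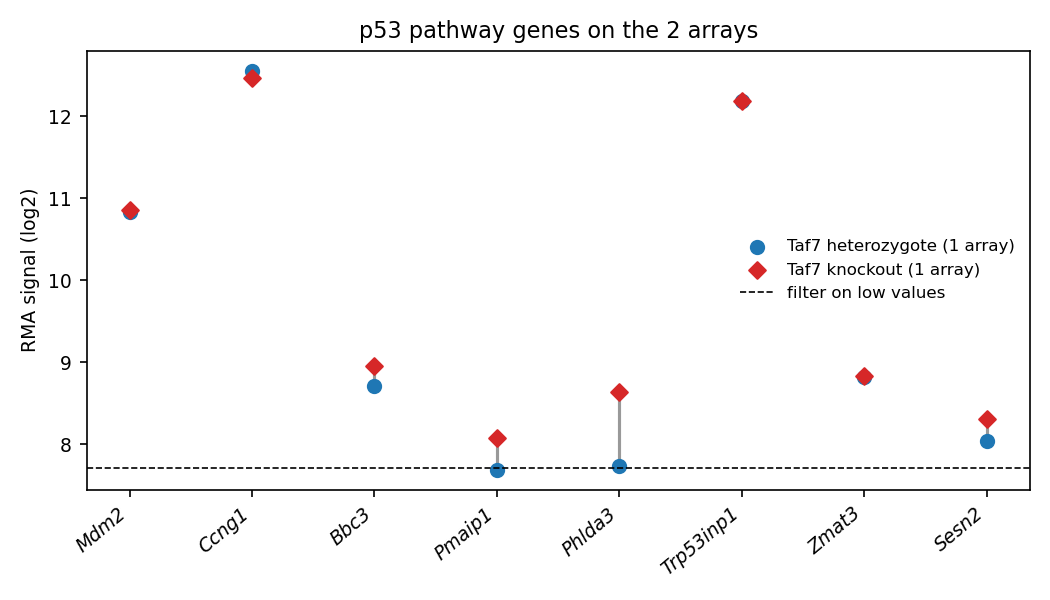
Deposited RMA signal (log2) of the 8 measured p53 pathway genes, with a circle for the heterozygous array, a diamond for the knockout array and a dashed line at the filter value of 7.71. The wide gap is that of Phlda3, from 7.74 to 8.64, while the symbols of Mdm2, Trp53inp1 and Zmat3 coincide.

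The regulator Mdm2, which marks p53 for degradation and is induced by it, had a log2 signal of 10.84 in heterozygous and 10.86 in knockout cells. The difference was 0.02 and both arrays were at nearly the same level. Among the 500 genes of nearest mean signal, 166 had a larger difference. Its partner Mdm4, which binds and inhibits p53 and belongs to the wider list of regulators, was higher, at 11.07 in heterozygous and 11.49 in knockout cells, or 1.33-fold.

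Of the cell cycle genes, Ccng1, which encodes cyclin G1, a partner of protein phosphatase 2A that acts on Mdm2, was at 12.56 in heterozygous and 12.47 in knockout cells. Its difference of -0.09 was the single negative value among the members, and 316 of the 500 genes of nearest mean had a larger one. This is the gene whose promoter carries the match with 1 mismatch shown above. Its paralog Ccng2 was also lower, by a difference of -0.24. Of the p21 family, Cdkn1b (p27) was at -0.04, or 0.02 after removal of the loess trend and 0.03 after quantile normalization. Cdkn1c (p57), with a low heterozygous value of 7.88, was at 0.17, or 0.07 and 0.11 under the same 2 scalings.

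Of the cell death genes, Pmaip1, a BH3-only protein that neutralises Mcl1, was at 7.69 in heterozygous and 8.08 in knockout cells. Its difference of 0.39, or 1.31-fold, was exceeded by 34 of the 500 genes of nearest mean, whose own median was 0.15. The heterozygous value lay below the filter value of 7.71, so the fold rests on a low signal. Bbc3, a BH3-only protein that binds the survival members of the BCL2 family, was at 8.71 in heterozygous and 8.96 in knockout cells. Its difference of 0.25, or 1.19-fold, was exceeded by 45 of the 500 genes of nearest mean, whose median was -0.14. Both of these differences lay inside the central 95% range of genes of nearest mean, which ran from -0.55 to 0.45 for Pmaip1 and from -0.75 to 0.35 for Bbc3.

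Phlda3 encodes a small protein with a pleckstrin homology domain that competes with the kinase Akt for membrane lipids and so restrains it. Its signal on the log2 scale was 7.74 in heterozygous and 8.64 in knockout cells, a difference of 0.90. The heterozygous value was next to the filter value of 7.71, so this fold also rests on a low signal. The difference ranked 7 among the 10457 genes, between Ms4a6c at 0.99 and Chrnb2 at 0.83. Of the 500 genes of nearest mean, with means from 8.09 to 8.28, 1 had a larger difference, and their central 95% range was -0.72 to 0.46. Phlda3 was picked for this difference, so its rank and its place outside that range follow from the choice. Its family members Phlda1 and Phlda2 were below the filter, with differences of 0.06 and 0.16, beside a median of 0.14 for all genes below the filter. The 3 genes nearest to Phlda3 by Euclidean distance over the 2 log2 values were Pik3r3, a regulatory subunit of phosphoinositide 3-kinase, at 7.70 and 8.49, Gm1604a at 7.73 and 8.48, and Dcst2 at 7.81 and 8.48. Nearness over 2 arrays describes level and difference alone.

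**Figure D2:**
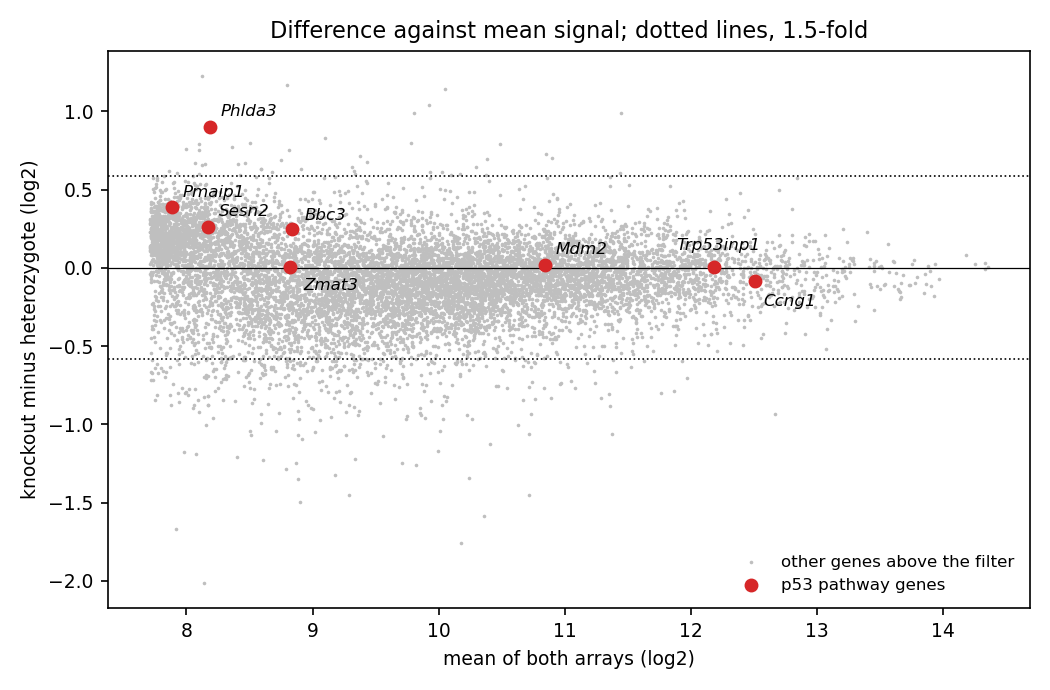
Difference of knockout minus heterozygote (log2) against the mean of both arrays (log2) for the 10457 genes above the filter in grey and the 8 measured p53 pathway genes in red, with dotted lines at 1.5-fold. Phlda3 at 0.90 lies above the cloud, and Pmaip1, Sesn2 and Bbc3 lie inside its upper part.

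Of the stress and metabolic genes, Sesn2, a leucine sensor that inhibits mTORC1, was at 8.04 in heterozygous and 8.30 in knockout cells. Its difference of 0.26, or 1.20-fold, was exceeded by 108 of the 500 genes of nearest mean. The other sestrins had negative differences, Sesn1, also a p53 target, at -0.28 and Sesn3 at -0.20. Trp53inp1, a nuclear protein that promotes p53 phosphorylation and autophagy, was at 12.18 on both arrays, with a difference of 0.00. Its paralog Trp53inp2 was at 0.16. Zmat3, an RNA-binding zinc finger protein, was at 8.82 in heterozygous and 8.83 in knockout cells, a difference of 0.01. Its paralogs Zmat1, Zmat2 and Zmat5 had negative differences of -0.34, -0.47 and -0.27, and Zmat4, below the filter, was at 0.00.

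Phlda3, Pmaip1, Bbc3 and Sesn2, the members with the larger differences, all had a mean signal under 9, as did Zmat3. Weak and strong signals were not offset alike between the arrays, and the median difference was 0.14 for genes below the filter and -0.05 above it. Once a loess trend on mean signal was removed, the differences left were 0.84 for Phlda3, 0.28 for Pmaip1, 0.27 for Bbc3 and 0.19 for Sesn2. This trend was fitted on all 35556 rows, those without a gene symbol included, so it can differ from the offset among genes above the filter. Bbc3 moved only from 0.25 to 0.27, though the genes above the filter of nearest mean had a median of -0.14. Quantile normalization gave 0.88, 0.33, 0.31 and 0.24 in the same order. Phlda3 stayed past 1.5-fold, Ccng1 stayed below 0 and the other members stayed above 0 under subtraction of the median difference, under the loess trend and under quantile normalization.

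**Figure D3:**
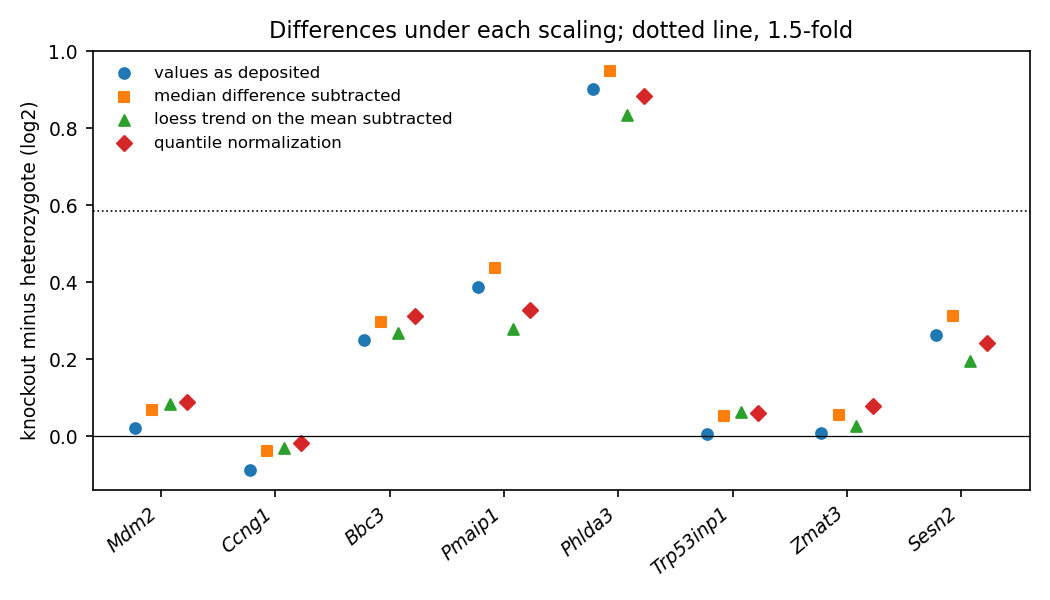
Difference of knockout minus heterozygote (log2) of the 8 measured genes as deposited and under 3 other scalings of the arrays, with a dotted line at 1.5-fold. Phlda3 lies between 0.84 and 0.95 and the other genes lie under the line in every scaling shown.

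Of 64 further genes listed as p53 targets or linked to p53, 58 were measured and 44 were above the filter, of which 22 were higher and 22 lower as deposited, where 40.9% of all genes were higher. After the loess trend 30 were higher and 14 lower, where 47.9% of all genes were higher, so the even split holds for the deposited scaling. Quantile normalization gave 31 higher and 13 lower, where 51.6% of all genes were higher. Their median difference was -0.00, beside -0.05 for all genes above the filter, and it was 0.05 after subtraction of the median difference, 0.06 after removal of the loess trend and 0.08 after quantile normalization. At 1.5-fold none was higher and 1 was lower, Trim13, beside 0.449% and 3.17% of all genes. Some listed genes, Trim13, Cdkn1b, Notch1 and Bcl6 among them, are only loosely established as direct p53 targets. Trim13, a ubiquitin ligase of the endoplasmic reticulum membrane, was at 9.23 in heterozygous and 8.19 in knockout cells, or 2.06-fold lower, where 0.325% of genes were at least 2-fold lower.

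The counts by role that follow are for the deposited scaling, in which 40.9% of all genes were higher. Among further cell death genes, 5 of the 9 above the filter were higher and 4 lower (median 0.03). Aen, an apoptosis-enhancing nuclease, was at 0.34 and Siva1 at 0.17, while Ei24 was at -0.38. Tnfrsf10b, the death receptor for Trail, went from 8.52 to 8.02, a difference of -0.50. Values of this group lay on both sides of 0.

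Cell cycle arrest genes lay close to 0, with 3 of 6 higher and a median of 0.01. Of these 6, 5 were higher after subtraction of the median difference and 4 after the loess trend or quantile normalization. Btg2, an antiproliferative factor, was at 0.14 and Sfn at 0.07, and Gadd45a, a damage-induced stress protein, was at -0.12. DNA repair genes had 4 of 7 higher and a median of 0.01, from Xpc, a sensor of bulky lesions, at -0.17 to Pcna, the sliding clamp, at 0.11 and Ddb2 at 0.26. Rev3l, a translesion polymerase, was at -0.04, and at 0.03 after the loess trend or quantile normalization. The count of DNA repair genes was 6 of 7 higher under each of the 3 other scalings. Those are median subtraction, loess and quantile normalization, where 50%, 47.9% and 51.6% of all genes were higher. The medians were then 0.05, 0.07 and 0.09.

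Of 8 metabolic and redox genes above the filter, 4 were higher and 4 lower (median -0.03). Ddit4, an mTORC1 inhibitor also induced by glucocorticoids and hypoxia, was the highest, at 11.73 in heterozygous and 12.16 in knockout cells, or 1.35-fold. Dcxr was at 0.16, and Rrm2b, the ribonucleotide reductase subunit that p53 induces, was at -0.36. The group of secreted and surface proteins had 2 genes above the filter, Ptprv at 0.15 and Tgfa at 0.10. In the feedback and mixed group, 4 of 12 were higher with a median of -0.01, from Trim13 and Bcl6, a transcriptional repressor, at -0.32 to Notch1 at 0.23 and Trp53inp2. The medians of the metabolic and the mixed group also changed sign with the scaling, to 0.02 and 0.04 after subtraction of the median difference, 0.03 and 0.06 after the loess trend and 0.04 and 0.06 after quantile normalization. Under these scalings in turn, 4, 4 and 5 of the 8 metabolic genes were higher, and 8 of the 12 mixed genes under each.

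The p53 family genes Trp63 and Trp73 were below the filter, with differences of 0.02 and 0.39, beside a median of 0.14 for all genes below it. Of the p53 regulators above the filter, 6 of 17 were higher, with a median of -0.06 beside the -0.05 of all genes above it. This median was -0.02 after subtraction of the median difference, -0.0025 after the loess trend and 0.0061 after quantile normalization, so it has no settled sign. Besides Mdm4, Cdkn2a, the locus of the Mdm2 inhibitor Arf, was at 0.26, with a heterozygous value of 7.64 below the filter. Kat5, an acetyltransferase that modifies p53, was at -0.39. Rpl5, a ribosomal protein that binds Mdm2, was at -0.34 and has 5 clusters and many near-identical pseudogenes, so its value is uncertain. None of the 17 differed by 1.5-fold.

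Genes that p53 lowers through p21 and the DREAM repressor complex had a split that varied with the scaling. Of 13 cell cycle genes above the filter 11 were higher and 2 lower as deposited, where 40.9% of all genes were higher. The split was again 11 and 2 after subtraction of the median difference, where 50% of all genes were higher. It was 8 and 5 after the loess trend, where 47.9% were, and 10 and 3 after quantile normalization, where 51.6% were. Their median was 0.09 as deposited, and 0.14, 0.08 and 0.10 under those 3 scalings in turn. Top2a, a topoisomerase, and Aurkb, a mitotic kinase, passed the filter through the knockout array alone, with heterozygous values of 7.705 and 7.708 just under it. The filter itself therefore favours higher genes in these counts. Mybl2, which encodes the cell cycle activator B-Myb, was at 0.39 and Ccnb2, a mitotic cyclin, at 0.31. Ccne1, the G1 to S cyclin, was at -0.45 and Mcm2, a subunit of the replicative helicase, at -0.09. No gene of this group differed by 1.5-fold, and 9 of 22 measured genes were below the filter.

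**Figure D4:**
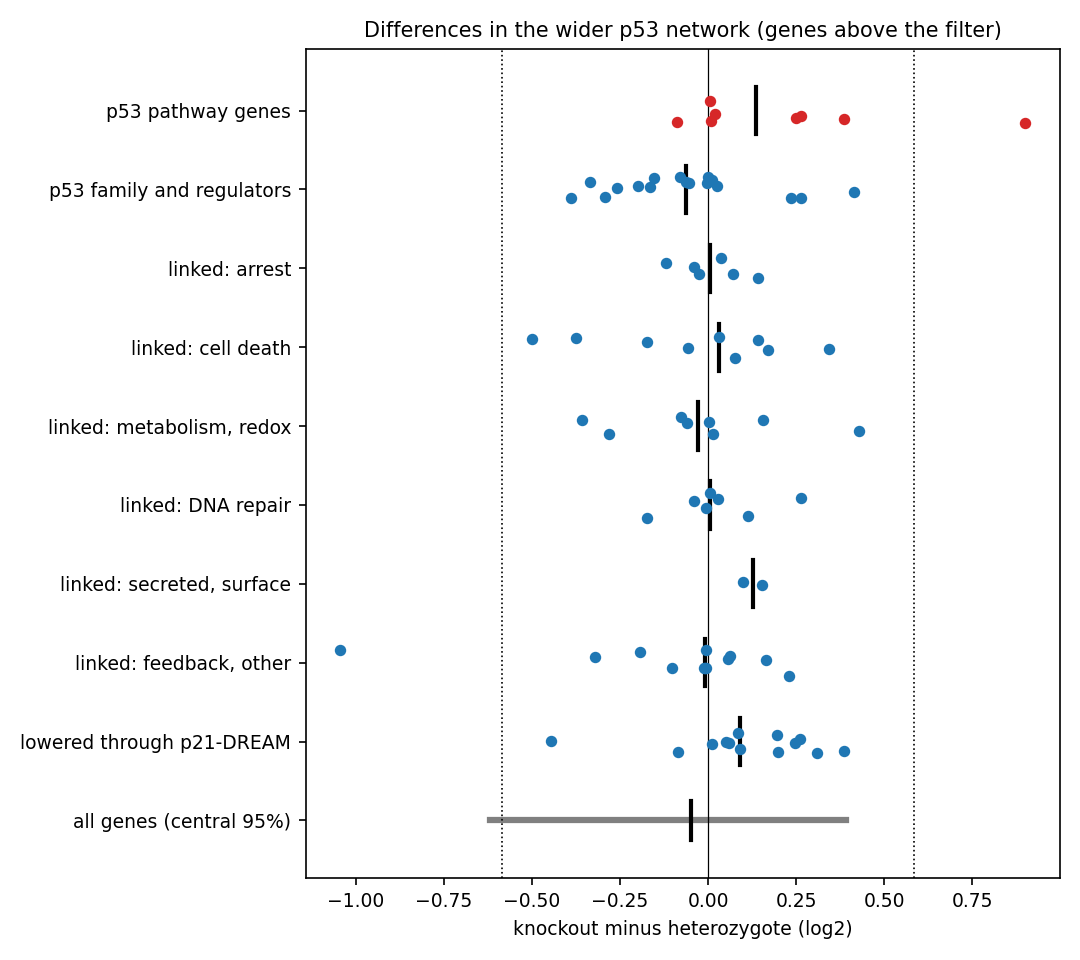
Difference of knockout minus heterozygote (log2) for the genes above the filter in each list, 1 point per gene, with a black bar at the list's median, dotted lines at 1.5-fold and, in the bottom row, the central 95% range of all genes from -0.62 to 0.39. Phlda3 on the right and Trim13 on the left are the 2 points outside the dotted lines.

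Facts of the whole arrays bear on these values. Taf7 itself was at 8.34 in heterozygous and 7.79 in knockout cells, 1.46-fold lower, and the position of its probes with respect to the deleted stretch is not stated, so the value may not check the genotype. The 9 CD4 T cell markers measured, among them Cd4 and Cd3e, lay between 11.06 and 13.50 on both arrays, and Thy1 was lower by a difference of -0.93. Of 10 regulatory T cell markers 9 were above the filter and all 9 were lower, where 59.1% of genes above it were. Nrp1 passed the filter through the heterozygous array alone. At least 1.5-fold lower were 6 of the 9, where 3.17% of genes were. The mean log2 value of the 10 was 10.2 in heterozygous and 9.44 in knockout cells, and Foxp3 was at 11.25 and 10.19. Of 10 activation and memory markers 8 were above the filter, of which 6 were lower and 2, Cd69 and Ccl5, higher. Lower by at least 1.5-fold were 2 of the 8, Cd44 and Icos, while Cd69 was higher by a difference of 0.44. The mean of the 10 was 9.51 and 9.23. The B cell markers, 9 measured, ranged from 5.38 to 8.24 in the heterozygote and 5.73 to 8.23 in the knockout, and 8 of them were below the filter. The myeloid markers, 13 measured, ranged from 5.86 to 8.75 and from 6.01 to 8.89, and 12 were below the filter. Of 6 natural killer cell markers 5 were below the filter, with a mean of 6.23 and 6.29, and the other, the perforin gene Prf1, was at 10.22 and 9.72. Of the CD8 T cell markers, Cd8a was below the filter at 7.63 and 7.65, while Cd8b1 was at 10.50 and 10.24. The 3 erythroid markers had a mean of 7.17 and 7.40. The part of the lower regulatory T cell markers and of Cd44 in the values of Phlda3 and the other members was not tested.

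**Figure D5:**
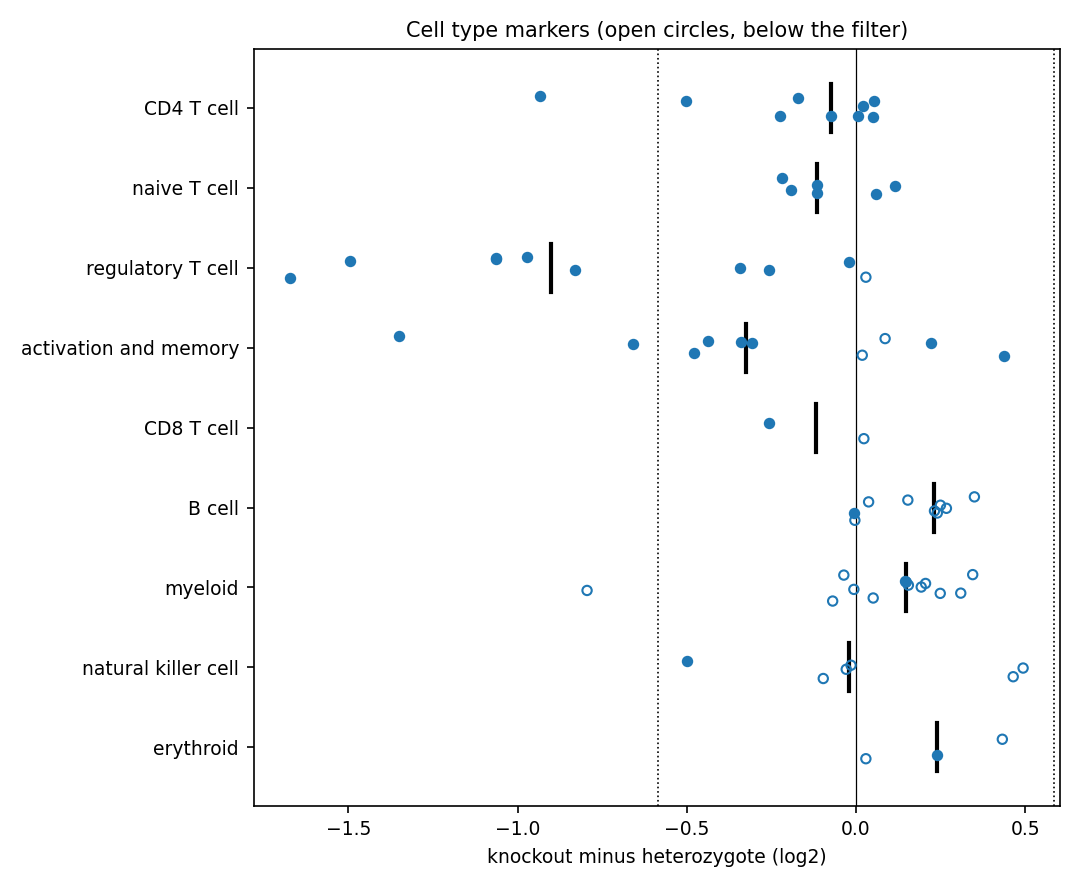
Difference of knockout minus heterozygote (log2) of cell type markers, 1 point per gene, open where the mean is below the filter, with a black bar at the median of each list over all measured genes and dotted lines at 1.5-fold. Regulatory T cell markers have a median of -0.90, while B cell, myeloid and erythroid markers have medians of 0.23, 0.15 and 0.24. Most markers of these last 3 lists are below the filter, where the median over all genes is 0.14. After the loess trend their medians are 0.10, 0.02 and 0.12. The myeloid point outside the dotted lines is Itgam, at -0.79.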

How the data were processed

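Total RNA of sorted CD4 T cells was hybridised to Affymetrix arrays, 1 per genotype. The authors deposited 1 log2 signal per gene and array, computed by RMA in their Expression Console software (version 1.1) for the core gene set, per the series design text and the submitters' processing notes. No build is stated for the probes. The design text names an exon array, but the probe table whose identifiers match is of a gene-level array, so which probes each value summarises is not settled.

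Among 35556 rows, 21789 clusters had 1 gene symbol, 1621 several and 12146 none in the platform's probe table. Gene identifiers of 21698 clusters were in the GRCm38.p6 gene table, and 0 symbols needed updating. Where a gene had several clusters, the one of highest mean was used. Among the named genes, Pcna, Sfn, Siva1, Cdkn1b and Top2a have 2 clusters each, and the value of the other cluster is not given. The difference of knockout minus heterozygote was taken on the deposited values, with the filter at the 50th percentile of all rows and counts at 1.5-fold and 2-fold. Each member was set beside the 500 genes of nearest mean above the filter, a comparison added after the values were seen. RMA values of weak probes are compressed, so folds near the filter value may be understated. The number of arrays limits the precision.

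The members, the gene lists and the settings were chosen with earlier results of these data known. The text names all members with a value, Taf7, paralogs, from each pathway list the 2 highest and the 2 lowest genes above the filter and all past 1.5-fold, and marker lists as counts; Ccng2, Cdkn1b and Cdkn1c are such paralogs. The gene table was tested on simulated data, with 2-fold differences planted in genes well above the filter. The noise there was smaller than the spread among genes of like mean here. That check does not cover genes near the filter value, such as Phlda3, Pmaip1 and Sesn2. Scripts ran under Python 3.11.15 with pandas 2.3.3 and numpy 2.4.6, the loess fit with statsmodels 0.14.6, and figures with matplotlib 3.10.9.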

Additional observations from a re-analysis of the deposited data

How the results depend on the processing

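The alternatives were quantile normalization, centring on the median, a loess correction (span 0.3), averaged clusters, no filter, and a filter at percentile 25 or 75. All 28 alternative values of the 7 members other than Phlda3 stayed within the robust SD of the genes of nearest mean. Averaging could not move them because each has 1 cluster. Subtracting the median of -0.05 moves every gene alike, by less than the smallest robust SD of 0.14, so it could not fail either. Because all 8 members passed the main filter, leaving it out or setting it at percentile 25 could not change their counts or median. Phlda3 lay between 0.84 and 0.95. With the filter at the 75th percentile, a log2 value of 9.63, only 3 members entered (Mdm2, Ccng1 and Trp53inp1), so their median was 0.0048 and 0 were past 1.5-fold, and 0 of the 21 further p53-linked genes were past it, since Phlda3 and Trim13 fall below that filter. The other 29 values, of Phlda3, the counts and the medians, stayed within the robust SD, 1.5 times the count or 0.1 on the log2 scale. Part of this was fixed in advance. Averaging could not move Phlda3, which has 1 cluster. Subtracting the median could not fail for Phlda3, whose robust SD was 0.27, or for the list medians, whose limit was 0.1. Leaving out an array was not an option here. No paired analysis was possible because only 1 array exists on either side. With single arrays there is no estimate of noise to set beside the differences of Phlda3, Pmaip1, Bbc3 and Sesn2.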
